A study of Mus musculus with 40 samples.

Results

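Bone marrow taken 1 day after cyclophosphamide was compared with bone marrow of untreated mice. The mice of both groups were DBA/2, an inbred laboratory strain. The treated group held 5 mice that received 83 mg/kg cyclophosphamide by intraperitoneal injection, and the control group held 5 mice without treatment. Each mouse was hybridised on 2 arrays, so the comparison used 10 of the 20 mice and 20 of the 40 arrays of the series. The other mice had the same dose, with marrow taken on day 2 (5 mice) or day 5 (5 mice). The marrow was unsorted, the mice were harvested independently, and no source used here gives their age or sex.

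Cyclophosphamide is a prodrug that the liver activates, and its products cross-link DNA, which dividing cells tolerate poorly. DNA damage stabilises the transcription factor p53, which induces inhibitors of the cell cycle and genes of cell death. Marrow is a tissue of rapid division, where precursors of red cells, granulocytes and B cells multiply beside mature cells, macrophages, vessels and stroma. In unsorted marrow, fewer cells of a type and less RNA per cell cannot be told apart, and a shift of one cell type changes the share of RNA from all others.

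Each value is the ratio of the RNA of a mouse, in Cy5, to a common reference, in Cy3, on a scale taken as log2. The labels call the reference a pool of untreated marrow, while its treatment field names cyclophosphamide, and this was not settled. The reference cancels in a difference between groups. A difference of 1 is a 2-fold change, and ratios to a reference give no order of level between genes. A feature, which is a gene symbol or a probe without a single symbol, was tested when at least 3 mice of each group had a value. This held for 6206 of 13027 features, of which 4546 had a symbol. Differences are given with the standard error (SE) of the limma fit over all 20 mice, and a feature was called at a Benjamini-Hochberg adjusted p under 0.05.

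Arrays of the control and day 1 mice carried values for 4079 to 7977 of 13443 probes. Across probes, correlations between both arrays of the same mouse ran from 0.772 to 0.957. Control mouse 4 and day 1 mouse 1 stood apart from their groups, with mean correlations to the other mice of the group of 0.232 and 0.352, against 0.395 to 0.603 for the other 8 mice. Of 31 markers of marrow cells, 19 were tested, 10 were on the array with too few values, and 2 were not in its annotation. Among the defining markers without enough values were Mpo, Cd79a, Cd79b, Slc4a1 and Cd3e, so granulocytes rest here on Prtn3, Ltf and Ngp, the B line on Vpreb1, Vpreb3 and Ms4a1, and the T cells on no tested marker of the 3 set for them.

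One day after the drug, 1014 of the 6206 features (16.3%) differed from control. Higher on day 1 were 582 (9.38%) and lower were 432 (6.96%), and the median difference over all tested features was -0.001. Changes were mostly below 2-fold. The median size among called features was 0.526, and 19 features rose and 11 fell by 2-fold or more. Every day 1 mouse with a value lay above the control mean for 530 of the 582, and below it for 402 of the 432. The same mice gave the calls, so much of this agreement follows from the choice of features. Among the 3428 features with a value in all 10 mice, the groups did not overlap for 216 that were above control (6.3%) and 210 that were below (6.13%). Calls tilted upwards among sparsely measured features: of the 2778 with a missing mouse, 197 were higher and 81 lower, against 385 and 351 of the complete ones. The total of called features depended on single mice. It was 624 without day 1 mouse 2, 595 without day 1 mouse 3, 665 without day 1 mouse 5 and 1332 without day 1 mouse 1. Without both mice that stood apart it was 1209, with 673 higher and 536 lower.

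**Figure D1:**
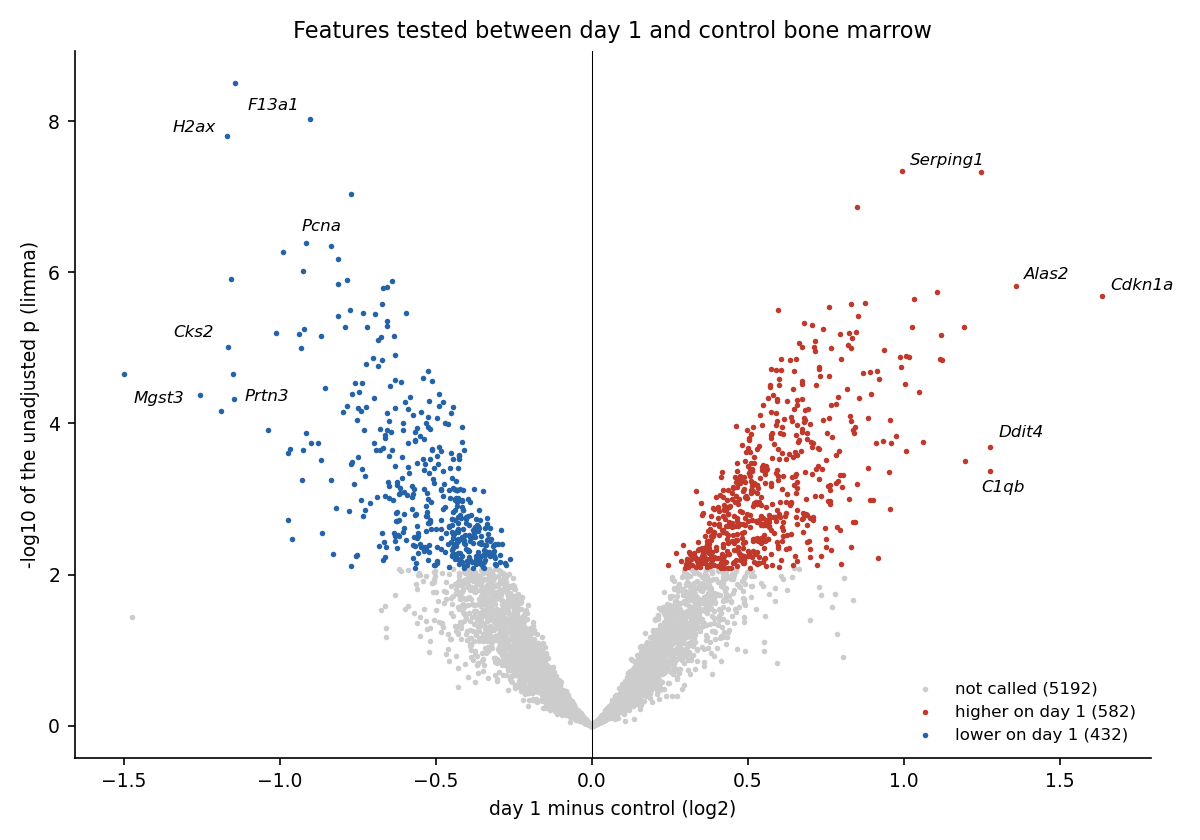
Each point is one of the 6206 tested features, with the day 1 minus control difference (log2) on the x axis and -log10 of the unadjusted limma p on the y axis. Red points were called higher (582) and blue points lower (432), grey points were not called, and 11 genes described in the text are named, with Cdkn1a farthest to the right.

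Targets of p53 rose in 6 of 17 tested genes (35.3%, against 9.38% over all features) and fell in 0. Cdkn1a, which encodes the cyclin-dependent kinase inhibitor p21, stood at -0.14, 0.065, -0.12, -0.16 and -0.066 in control mice 1 to 5. On day 1 it stood at 1.97, 0.29, 2.33, 1.64 and 1.52 in mice 1 to 5. All day 1 mice were above all control mice, and mouse 2 was well below the other day 1 mice. The difference was 1.63 (SE 0.26), a 3.1-fold rise with an adjusted p of 0.000612 in limma, and the largest rise of any gene with a symbol. The list's median difference was 0.31, beside -0.001 over all features. When each mouse was left out in turn, 5 or 6 members were called higher.

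Ddit4, an inhibitor of mTORC1 that p53, low oxygen and glucocorticoids also induce, ranged from -0.91 to -0.0041 in control mice. Its day 1 values were 0.50, -0.18, 1.27, 1.23 and 1.27, so day 1 mouse 2 overlapped the controls. The rise was 1.28 (SE 0.29, adjusted p = 0.00527). Tnfrsf10b, the death receptor for TRAIL, rose by 0.69 (SE 0.15), Abhd4 by 0.59 (SE 0.12) and Polk, a polymerase that copies past damaged bases, by 0.51 (SE 0.13). Zmat3, which encodes a p53-induced RNA-binding protein, was called at 0.36 (adjusted p = 0.0396), and kept this call, among the fits that left out a mouse, without control mouse 2 or day 1 mouse 2 or 4, with adjusted p up to 0.111 over all alternatives. The other 11 tested members of the p53 list, among them Bbc3, Btg2, Sesn2 and Trp53inp1, were not called. Of the 17 differences in the list, 3 were below 0. Mdm2, Fas and Gadd45a, which are other known targets, were on the array with values in too few mice. Among 17 tested genes of the apoptosis list, 2 rose (11.8%) and 3 fell (17.6%), beside 9.38% and 6.96% over all features, with a median of -0.11. The 2 rises were both lost without control mouse 1, 3 or 5 or day 1 mouse 2, 3 or 5, 1 was left without control mouse 2 or day 1 mouse 4, and the falls dropped to 1 without control mouse 4 or day 1 mouse 3.

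Calls in the DNA repair list went the other way, led by the histone variant H2ax, whose phosphorylated protein marks DNA breaks. H2ax stood at 0.27, -0.057, 0.77, 0.51 and 0.40 in the control mice and at -0.77, -0.81, -0.72, -0.61 and -1.04 in the day 1 mice. The groups were far apart, and the day 1 mice lay close together. The fall of 1.17 (SE 0.14, adjusted p = 3.29e-05) left 0.445 of the control level. Of the 18 tested members, 4 fell (22.2%, against 6.96% over all features) and 0 rose, with a median of -0.17. Among the fallen was Mre11a, a nuclease of the break-sensing complex, at -0.41 (SE 0.11). Without control mouse 1, control mouse 3, day 1 mouse 3 or day 1 mouse 5, 2 members were called lower.

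Genes of cell division fell together. The mitosis list had 26 tested members, of which 13 were lower and 0 higher, with a median of -0.48. The DNA replication list had 32, of which 14 were lower and 0 higher, with a median of -0.36. These shares of 50% and 43.8% compare with 6.96% lower over all features. Leaving out a mouse gave 11 to 14 lower members for mitosis and 10 to 17 for replication.

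Cks2, a small subunit that binds cyclin-dependent kinases, showed the largest fall of the mitosis list. Control mice 1 to 5 had 0.31, 0.20, 1.09, 0.29 and 0.45, and the day 1 mice had 0.089, -0.86, -0.76, -1.47 and -0.51. The groups did not overlap, although day 1 mouse 1 came within 0.11 of the lowest control. The difference was -1.17 (SE 0.21, adjusted p = 0.001). Cdk1, the kinase that starts mitosis, stood at 0.31, 0.26, 0.43, -0.017 and 0.15 in control and at -0.42, -0.90, -0.63, -0.064 and -0.58 on day 1, a difference of -0.74 (SE 0.15). Its day 1 mouse 4 lay just below control mouse 4. Ect2, an exchange factor for the cleavage furrow, differed by -0.99 (SE 0.15), and Cenpk, a kinetochore protein, by -0.81 (SE 0.13). Smc4, a condensin subunit, differed by -0.77 (SE 0.10), and Tpx2, a spindle assembly factor, by -0.75 (SE 0.15).

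Among replication genes, Pcna, the sliding clamp of the replicating polymerases, stood between -0.073 and 0.17 in control mice. Its day 1 values were -0.64, -1.22, -0.93, -0.51 and -1.03, all far below control. The difference was -0.92 (SE 0.13, adjusted p = 0.000306). Enzymes of the thymidine supply fell with it: Dut, which removes dUTP, by 0.94 (SE 0.16) and Tyms, thymidylate synthase, by 0.74 (SE 0.14). Mcm4, a subunit of the replicative helicase, fell by 0.87 (SE 0.15), Rnaseh2a, which removes RNA from DNA, by 0.80 (SE 0.17) and Asf1b, a histone chaperone of S phase, by 0.72 (SE 0.18). In Asf1b, day 1 mouse 1 at -0.061 lay among the control mice.

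In the histone and chromatin list 7 of 19 tested members fell (36.8%, against 6.96% over all features) and 0 rose. The median was -0.26, or -0.42 without day 1 mouse 1. H2az1, a histone variant of active promoters, differed by -0.93 (SE 0.16), Anp32b, a histone chaperone, by -0.92 (SE 0.16), Lmnb1, a nuclear lamin, by -0.77 (SE 0.18) and Hmgn2, a nucleosome-binding protein, by -0.77 (SE 0.18). Asf1a differed by -0.76 (SE 0.15) and Dek by -0.74 (SE 0.15).

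**Figure D2:**
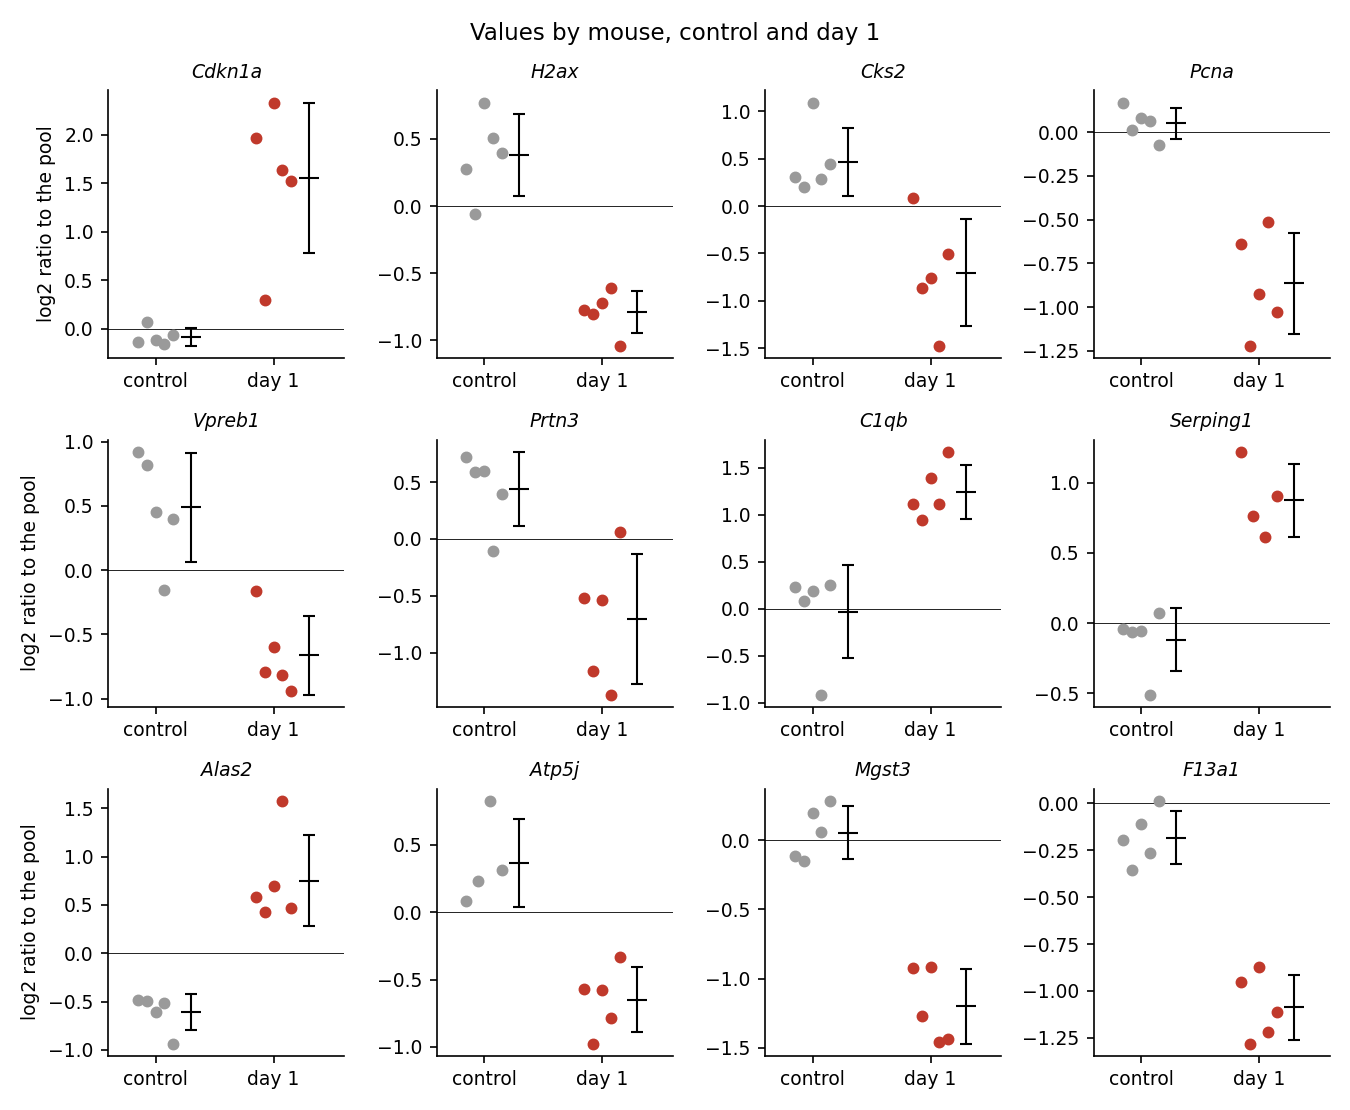
Each panel shows 1 gene, with the log2 ratio to the reference on the y axis and a point for each mouse, grey for control and red for day 1. Bars give the mean and SD of the group. The groups are separate in every panel except Prtn3, where day 1 mouse 5 lies above the lowest control mouse.

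Promoter sequences are shown for falling genes of division, because known regulators of cell cycle genes act through short elements close to the start: the CCAAT box, the cell cycle gene homology region (CHR, with the letters TTTGAA) and E2F sites. The sequences are the 160 bases before the annotated start, 5′ to 3′, from RefSeq (GRCm38.p6), Ect2 from the first of its starts in the table, and capitals mark matches on either strand to the CCAAT box, the CHR letters or an E2F site (TTTCCCGC, TTTCGCGC, TTTGGCGC or TTTGCCGC).
Cks2 (chr13:51645072-51645231, + strand): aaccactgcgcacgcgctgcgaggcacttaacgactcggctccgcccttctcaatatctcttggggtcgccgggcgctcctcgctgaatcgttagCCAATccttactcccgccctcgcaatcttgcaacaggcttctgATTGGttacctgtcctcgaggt
Ect2 (chr3:27153879-27154038, - strand): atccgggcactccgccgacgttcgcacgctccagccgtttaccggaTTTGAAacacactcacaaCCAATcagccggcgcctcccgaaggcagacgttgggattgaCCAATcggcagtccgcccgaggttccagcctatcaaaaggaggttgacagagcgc
Cdk1 (chr10:69352913-69353072, - strand): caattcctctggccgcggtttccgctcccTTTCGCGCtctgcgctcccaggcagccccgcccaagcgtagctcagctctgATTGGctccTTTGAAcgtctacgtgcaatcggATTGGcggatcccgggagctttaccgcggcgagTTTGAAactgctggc
Asf1b (chr8:83955534-83955693, + strand): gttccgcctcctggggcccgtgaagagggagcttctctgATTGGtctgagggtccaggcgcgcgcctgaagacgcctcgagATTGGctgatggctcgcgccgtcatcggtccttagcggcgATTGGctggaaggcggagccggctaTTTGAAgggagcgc
Pcna (chr2:132253181-132253340, - strand): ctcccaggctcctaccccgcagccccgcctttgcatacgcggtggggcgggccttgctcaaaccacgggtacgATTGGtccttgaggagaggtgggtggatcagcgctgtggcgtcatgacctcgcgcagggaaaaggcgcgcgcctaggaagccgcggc
The Cdk1 promoter held all 3 elements, with an E2F match that began 131 bases before the start and CHR matches at 71 and 15 bases. Ect2 and Asf1b held the CHR and CCAAT letters, and Cks2 and Pcna held a CCAAT box without the others. The promoters shown were a choice among the lower genes. No other lower gene of the 2 lists with a RefSeq promoter held CHR letters in this stretch. Dut, Tyms, Tk1 and Nuf2, also lower, held none of the 3 elements there. In the 250 bases before the start, CCAAT was found in 9 of the 10 lower mitosis genes with a promoter in the table and in 8 of the 13 lower replication genes. Among members tested and not called it was found in 6 of 11 and 7 of 16. The shares over all 27025 genes of the table were 37.5% for the CCAAT box, 18.3% for the CHR and 2.16% for the E2F letters. The CHR letters were found in 2 of the 10 lower mitosis genes, and in 5 of the 11 mitosis genes that were tested and not called. For replication they were found in 1 of the 13 lower and in 5 of the 16 uncalled genes. E2F letters were found in 3 of the 13 lower and in 3 of the 16 uncalled replication genes. A match describes letters, not a site in use, and no test was made.

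In the B line, precursor genes fell while the mature list did not. Vpreb1 encodes part of the surrogate light chain of the pre-B cell receptor. It stood at 0.92, 0.82, 0.46, -0.16 and 0.40 in control mice 1 to 5 and at -0.16, -0.79, -0.59, -0.82 and -0.94 on day 1. Control mouse 4 and day 1 mouse 1 nearly met, and the other mice were well apart. The difference was -1.15 (SE 0.22, adjusted p = 0.0015). Vpreb3, which binds immunoglobulin chains in the same cells, was -0.97 (SE 0.28), with 4 day 1 mice between -1.25 and -0.99 and mouse 1 at -0.019. Cnn3, an actin-binding protein, was -0.69 (SE 0.16). These 3 were the calls among 6 tested precursor genes (50% lower, against 6.96% over all features). The median was -0.60, and 3 were called in each fit without a mouse.

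Of 13 tested genes of mature B and plasma cells, 2 rose (15.4%, against 9.38% over all features) and 0 fell, with a median of 0.27. Only 1 was called higher without control mouse 3 or day 1 mouse 2, 3 or 5. The median was 0.18 without control mouse 5 and 0.15 without day 1 mouse 3. Cd22, an inhibitory receptor of B cells, lay between -0.50 and -0.10 in control and between 0.20 and 0.37 on day 1, a rise of 0.52 (SE 0.13, adjusted p = 0.0103). Ms4a1, which encodes CD20, was 0.79 (SE 0.40, adjusted p = 0.188) and did not pass the test, and neither did Fcmr, the IgM receptor, at 0.80 (adjusted p = 0.299). Values differed among day 1 mice. The mature list had a median of -0.005 in mouse 1 and 0.048 in mouse 4, against 0.41 to 0.54 in the other 3. The precursor list had -0.081 in mouse 1 and -0.40 in mouse 4, against -0.98 to -0.74. Of 9 tested genes of T and natural killer cells, 0 were called in limma and 1 had an unadjusted p under 0.05. Without day 1 mouse 1, 1 was called higher and 1 lower. Cd28, their smallest p, was 0.42 (adjusted p = 0.0732).

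Among myeloid lists, calls were lower for 2 of 5 granulocyte precursor genes (40%) and 3 of 9 monocyte genes (33.3%). They were higher for 5 of 10 macrophage genes (50%). Over all features 6.96% were lower and 9.38% higher. Prtn3, proteinase 3 of early granules, stood at 0.73, 0.59, 0.60, -0.10 and 0.40 in the control mice and at -0.52, -1.16, -0.54, -1.37 and 0.064 on day 1. Day 1 mouse 5 overlapped control mouse 4. The difference was -1.15 (SE 0.23, adjusted p = 0.0023). Plac8, expressed in myeloid precursors, was -0.66 (SE 0.18), and both were the calls among 5 tested precursor genes, with a median of -0.39, or -0.24 without control mouse 4.

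Of 20 genes of late neutrophils, 3 rose (15%, against 9.38% over all features) and 1 fell (5%, against 6.96%). The median was -0.038, and the rises rested on single mice. Without control mouse 1 or 4 or day 1 mouse 1, 3, 4 or 5 there were 0, without control mouse 2, 3 or 5 there was 1, and without day 1 mouse 2 there were 4. The median was 0.05 without control mouse 3 and 0.059 without day 1 mouse 2, and was below 0 without any other single mouse. Ltf, lactoferrin, was -0.24 (SE 0.19, adjusted p = 0.41) and Ngp, another secondary granule protein, was -0.18 (adjusted p = 0.649), so neither passed the test. On 6 control and 5 day 1 arrays Ngp lay at 1 value that several probes of the array shared, so its ratio may be capped there. Lta4h, which makes leukotriene B4, fell by 0.97 (SE 0.22, adjusted p = 0.00547). Il1b, the cytokine interleukin 1 beta, ranged from -0.20 to 0.54 in control and from 0.72 to 1.43 on day 1. Its rise of 0.92 (SE 0.30, adjusted p = 0.0412) was called without control mouse 2 or day 1 mouse 2, and was lost in the other 8 fits that left out a mouse, with adjusted p up to 0.0972 over all alternatives.

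F13a1, the A chain of coagulation factor XIII, marks monocytes and macrophages. It stood at -0.20, -0.36, -0.11, -0.26 and 0.014 in control and at -0.95, -1.28, -0.87, -1.22 and -1.11 on day 1. The gap between the groups was 0.51 and the difference -0.90 (SE 0.10, adjusted p = 2.87e-05). Ms4a6b and Ms4a6c, membrane proteins of the myeloid line, were -0.63 (SE 0.13) and -0.61 (SE 0.14). Of 9 tested monocyte genes 3 fell (33.3%, against 6.96% over all features) and 1 rose (11.1%, near 9.38%). The risen gene was Ms4a6d, so the Ms4a6 genes of the list did not move together. This rise was lost without control mouse 3 or day 1 mouse 2 or 3.

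Macrophage genes rose in 5 of 10 tested members (50%, against 9.38% over all features), 0 fell, and the median was 0.51. C1qb, a chain of complement C1q made by resident macrophages, stood at 0.23, 0.087, 0.19, -0.91 and 0.25 in control and at 1.11, 0.94, 1.39, 1.11 and 1.67 on day 1. The groups were separate, with control mouse 4 far below its group. The difference was 1.27 (SE 0.31, adjusted p = 0.00828). C1qc was 0.76 (SE 0.19), Folr2, a folate receptor of tissue macrophages, 0.54 (SE 0.13) and Adgre1, which encodes F4/80, 0.48 (SE 0.12). Fcna, a ficolin that binds microbial sugars, was 0.76 (SE 0.20) and missed the threshold without day 1 mouse 4 (adjusted p = 0.0549). Leaving out a mouse gave 4 to 6 risen members.

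In the antigen presentation list 1 of 16 tested genes rose (6.25%) and 2 fell (12.5%), beside 9.38% and 6.96% over all features. The median was -0.04, or 0.014 without control mouse 4 and 0.056 without day 1 mouse 2. Without control mouse 1 or 3 or day 1 mouse 2, 3 or 5, 1 fell. H2-Aa, a chain of class II antigen presentation, rose by 0.74 (SE 0.18), while Psmb10, a subunit of the immunoproteasome, fell by 0.66 (SE 0.10). Among 20 interferon-induced genes 2 rose (10%) and 1 fell (5%), near the shares over all features. The fall was called only without control mouse 2 or 5 or day 1 mouse 4 among the fits that left out a mouse. The risen ones were Ifih1, a sensor of double-stranded RNA, at 0.59 (SE 0.12), and Oasl2 at 0.58 (SE 0.13), both with all day 1 mice above all control mice.

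**Figure D3:**
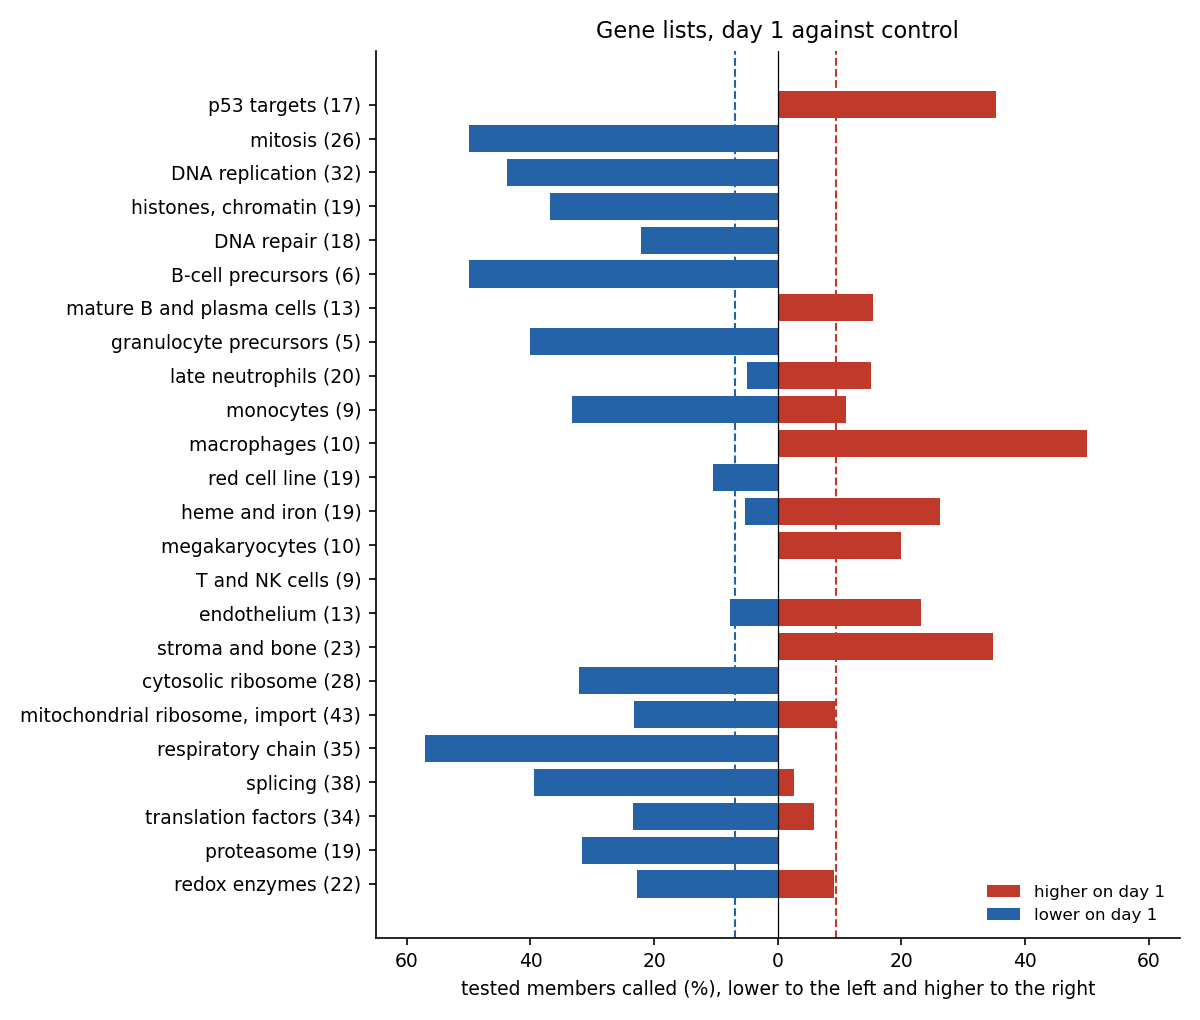
Bars give the percent of tested members of each gene list that were called higher (red, to the right) or lower (blue, to the left) on day 1, with the number tested in parentheses. Dashed lines mark the shares over all 6206 features, 9.38% higher and 6.96% lower, and the respiratory chain has the longest bar on the left at 57.1%.

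In the red cell line, 2 of 19 tested genes fell (10.5%, near the 6.96% over all features) and 0 rose, with a median of -0.31. None were called without day 1 mouse 3 or 5, and 1 without control mouse 3, 4 or 5 or day 1 mouse 2 or 4. They were Icam4, an adhesion molecule of red cell precursors, at -0.96 (SE 0.29) and Btnl10 at -0.86 (SE 0.26). Icam4 lost its call without control mouse 3 or 4 or day 1 mouse 3, 4 or 5, and Btnl10 without control mouse 5 or day 1 mouse 2, 3 or 5, with adjusted p up to 0.0791 and 0.0696 over all alternatives. Genes of heme and iron handling moved both ways. Of 19, 5 were higher (26.3%, against 9.38% over all features) and 1 lower (5.26%, against 6.96%). Without control mouse 1, 2 were higher, and without control mouse 2 or day 1 mouse 4, 3 were. Alas2, the first enzyme of heme synthesis in red cells, stood at -0.48, -0.49, -0.61, -0.52 and -0.93 in control and at 0.59, 0.43, 0.70, 1.58 and 0.46 on day 1. The gap of 0.91 between the groups was the widest upward gap of any named gene with all 10 mice. The rise was 1.36 (SE 0.21, adjusted p = 0.000534).

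Ppox, a later enzyme of the same pathway, ran opposite to Alas2. It stood at -0.51, -0.35, 0.48, 0.22 and 0.10 in control and at -0.71, -1.02, -1.30, -0.54 and -1.12 on day 1, a difference of -0.93 (SE 0.21, adjusted p = 0.00547). The groups were separated by a narrow gap. Slc25a39, a mitochondrial carrier, rose by 0.82 (SE 0.14, with values in 3 control and 4 day 1 mice). Ftl1, ferritin light chain, was 0.60 (SE 0.18), and lost its call without control mouse 1 or control mouse 2 (adjusted p up to 0.0916). In the megakaryocyte list 2 of 10 rose (20%, against 9.38% over all features) and 0 fell. In every fit without a mouse other than control mouse 4 or day 1 mouse 1, 1 was called higher. Among the 2 risen was F2rl2, a thrombin receptor, at 0.52 (SE 0.12).

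Calls in the stromal and vessel lists were mostly higher. Of 23 tested stromal and bone genes 8 rose (34.8%, against 9.38% over all features) and 0 fell, with a median of 0.38. Without control mouse 1 or 2 or day 1 mouse 2, 3 or 5, 5 were called higher. Serping1, the C1 inhibitor, stood at -0.043, -0.061, -0.055, -0.51 and 0.070 in control and at 1.22, 0.76, 0.62 and 0.90 in day 1 mice 2 to 5, with no value in mouse 1. Every measured day 1 mouse was above every control. The difference was 0.99 (SE 0.12, adjusted p = 5.92e-05). Fstl1, a secreted glycoprotein of mesenchymal cells, was 0.85 (SE 0.12), with 4 day 1 mice between 0.85 and 0.89 and mouse 4 at 0.36. Tagln, a smooth muscle actin-binding protein, was 0.54 (SE 0.14) and Adipoq, the hormone adiponectin, 0.53 (SE 0.14). Adipoq lost its call when arrays were fitted singly with the mouse as a random block (adjusted p = 0.0628).

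The endothelial list had 3 higher (23.1%, against 9.38% over all features) and 1 lower (7.69%, near 6.96%) of 13, with a median of 0.24. Only 2 rises were called without control mouse 1, 2, 4 or 5 or day 1 mouse 2, 3 or 5. The fall was lost without control mouse 1, 3 or 5 or day 1 mouse 2, 3 or 4. Plvap, which forms the diaphragms of fenestrated vessels, ranged from -0.34 to -0.15 in 4 control mice and from 0.081 to 0.97 on day 1, a rise of 0.80 (SE 0.20, adjusted p = 0.0089). Flt1, a receptor for vascular endothelial growth factor, was 0.60 (SE 0.15). Sox7 was the other risen member, and was not called in the fits with 2 rises. Icam2 was the fallen one, and 9 members were not called. Outside this list, Esm1, a proteoglycan secreted by endothelium, was 1.20 (SE 0.27). Of 29 cytokine receptors 5 rose (17.2%, against 9.38% over all features) and 0 fell. Among the 5 were Ccr9, a homing receptor for the gut, at 0.74 (SE 0.13), Il17ra at 0.58 (SE 0.13) and Ccr6 at 0.48 (SE 0.12). Of 34 cytokines 2 rose (5.88%) and 1 fell (2.94%), both below the 9.38% and 6.96% over all features. In each fit without a mouse other than control mouse 2 or day 1 mouse 2, 1 rise was left. Tnfsf13, which encodes the survival factor APRIL, was -0.57 (SE 0.15) and Il17b was 0.42 (SE 0.12).

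The respiratory chain had the largest share of called members. Of 35 tested genes 20 fell (57.1%) and 0 rose, with a median of -0.51, and leaving out a mouse gave 15 to 23. Atp5j, a coupling subunit of ATP synthase, stood at 0.082, 0.23, 0.83 and 0.32 in control mice 1, 2, 3 and 5 and at -0.57, -0.98, -0.58, -0.79 and -0.33 on day 1. Control mouse 4 had no value, and the groups did not overlap. The difference was -1.01 (SE 0.17, adjusted p = 0.000845). Ndufv2, a subunit of complex I, was -0.81 (SE 0.12), with no overlap between the groups. Ndufa5, another complex I subunit, was -0.82 (SE 0.23), with day 1 mouse 4 at -2.01 and the other 4 between -0.70 and -0.32, and was not called when limma was fitted to these 10 mice alone (adjusted p = 0.0503).

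Cytosolic ribosomal proteins fell in 9 of 28 tested members (32.1%, against 6.96% over all features), 0 rose, and the median was -0.43. Rpl28 stood at 0.17, 0.29, 0.93, 0.29 and 0.21 in control and at 0.087, -0.69, -0.21, -1.36 and -0.11 on day 1, a difference of -0.84 (SE 0.21, adjusted p = 0.0098). Day 1 mouse 1 lay just below the lowest control, and the call was lost with the first array of each mouse alone (adjusted p = 0.0541). Rps18 was -0.76 (SE 0.19). The size rested on a few mice. The median of the ribosomal list relative to the control mean was -1.06 in day 1 mouse 4 and -0.52 in mouse 2, against -0.17 to -0.094 in the other 3, and 0.37 in control mouse 3. Without day 1 mouse 2, 4 members were called, and without control mouse 3 or day 1 mouse 4, 5 were. For the respiratory chain, mouse 4 was also lowest at -0.94, and the other day 1 mice lay between -0.59 and -0.28. Of 43 mitochondrial ribosome and import genes 10 were lower (23.3%, against 6.96% over all features) and 4 higher (9.3%, near 9.38%). There were 2 higher without control mouse 1 or 2 or day 1 mouse 2 or 3. Examples are Mrpl18 at -0.72 (SE 0.15) and Mrpl38 at 0.59 (SE 0.13).

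Splicing factors fell in 15 of 38 tested members (39.5%, against 6.96% over all features). The list had 1 higher (2.63%, against 9.38%) and a median of -0.35. Without day 1 mouse 2 or 3, 8 were lower, and the rise was lost without control mouse 1, 3 or 5 or day 1 mouse 2, 3 or 5. Srsf2, a splicing regulator, was -0.81 (SE 0.14), Hnrnpr, an RNA-binding protein, -0.78 (SE 0.13) and Lsm4, a core subunit of the U6 particle, -0.72 (SE 0.12), each with no overlap between groups. Translation factors had 8 lower (23.5%, against 6.96% over all features) and 2 higher (5.88%, against 9.38%) of 34. There were 2 lower without day 1 mouse 2, 5 without day 1 mouse 3 and 4 without day 1 mouse 5. Eif3k was -0.86 (SE 0.17) and Fars2, a mitochondrial phenylalanyl-tRNA synthetase, 0.66 (SE 0.13). Proteasome subunits fell in 6 of 19 members (31.6%, against 6.96% over all features), 0 rose, and the median was -0.33. Psmb4 was -0.66 (SE 0.15) and Psmd13 -0.65 (SE 0.17).

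Redox enzymes had 5 lower (22.7%, against 6.96% over all features) and 2 higher (9.09%, near 9.38%) of 22. There were 3 lower without day 1 mouse 2, and 1 higher without control mouse 1, 2 or 5 or day 1 mouse 2, 3 or 5. Mgst3, a microsomal glutathione transferase, showed the largest fall of any gene with a symbol. It stood at -0.11, -0.15, 0.20, 0.062 and 0.29 in control and at -0.92, -1.27, -0.91, -1.46 and -1.44 on day 1. The gap of 0.76 was the widest downward gap, and the difference was -1.26 (SE 0.25, adjusted p = 0.00218), or 0.419 of the control level. Gpx4, which reduces lipid peroxides, was -0.68 (SE 0.16) and Gpx3, a secreted peroxidase, 0.51 (SE 0.13). Aldehyde dehydrogenases detoxify cyclophosphamide metabolites. In the aldehyde and drug list 1 of 9 rose (11.1%, near the 9.38% over all features) and 0 fell. The risen gene was Aldh7a1 at 0.76 (SE 0.19). It had values in 4 control and 3 day 1 mice, so leaving out day 1 mouse 2, 3 or 4 left too few. Aldh1a1 had too few values to be tested. Of 10 genes of the hypoxia list 3 rose (30%, against 9.38% over all features) and 1 fell (10%, against 6.96%). The risen were Ddit4, Egln3, an oxygen-sensing hydroxylase, at 0.58 (SE 0.16) and Slc2a1, a glucose transporter, at 0.51 (SE 0.12).

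**Figure D4:**
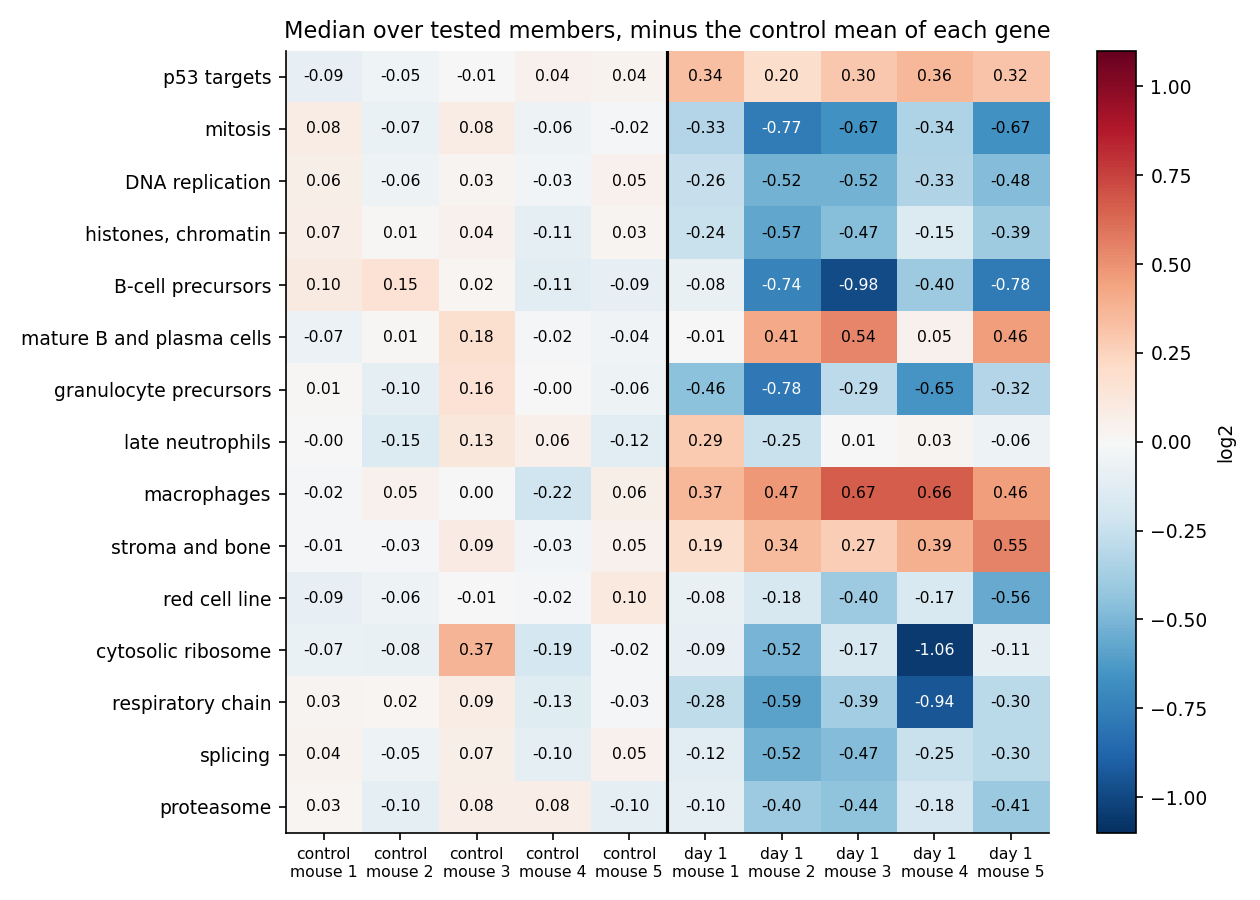
Each cell gives, for 1 mouse (columns) and 1 gene list (rows), the median over tested members of the log2 value minus the control mean of that gene, red above and blue below. Mitosis, replication and p53 targets have 1 sign in all 5 day 1 mice, while the ribosomal fall is deepest in day 1 mouse 4 (-1.06) and the precursor B-cell fall is shallowest in mouse 1 (-0.08).

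Other genes were named for the size of their change, or as the largest called member of lists with few calls. Mov10, an RNA helicase, rose by 1.25 (SE 0.14, adjusted p = 5.92e-05), with 4 control mice between -0.43 and -0.34 and 4 day 1 mice between 0.49 and 1.06. Anxa4, an annexin, rose by 1.11 (SE 0.18), Actb, beta actin, by 1.06 (SE 0.24), Snx24, a sorting nexin, by 1.05 (SE 0.21), Stimate by 1.03, Pdia4, a disulfide isomerase, by 0.91 (SE 0.18) and Pfdn1, a prefoldin, by 0.84 (SE 0.18). Stambpl1, a deubiquitinase, was -1.19 (SE 0.23), Gin1 -0.93 (SE 0.14), Arsb, a lysosomal sulfatase, -0.83 (SE 0.12) and Slc1a5, a glutamine transporter, -0.78 (SE 0.16). All had groups without overlap except Actb, which lay at a shared value on 2 control arrays. The lists behind some of these moved both ways, with 2 higher and 1 lower of 31 cytoskeletal genes (Actb), 6 and 9 of 79 for vesicle traffic (Snx24) and 1 and 3 of 19 for folding in the endoplasmic reticulum (Pdia4). There were 3 and 1 of 26 for chaperones (Pfdn1), 4 and 2 of 32 for the lysosome (Arsb) and 11 and 2 of 83 for solute carriers (Slc1a5). Shares in these lists ran from 5.26% to 13.3% higher and from 2.41% to 15.8% lower, beside 9.38% and 6.96% over all features. Leaving out a mouse gave 0 to 2 higher and 0 to 3 lower for the endoplasmic reticulum, 5 to 12 lower for vesicles, 1 to 5 higher for the lysosome and 7 to 15 higher for solute carriers. The lowest of these came without day 1 mouse 2, in some lists also without other mice.

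The rises also included genes known from other tissues. Klk1b5, a kallikrein of the salivary gland, stood at -0.24, -0.15, -0.21, -0.23 and -0.35 in control and at 0.58, 0.96, 1.12, 0.34 and 0.84 on day 1, a rise of 1.00 (SE 0.20, adjusted p = 0.00179). The groups were wide apart. Myf6, a muscle transcription factor, rose by 1.12 (SE 0.20), Syt9, a synaptotagmin, by 1.12 (SE 0.20) and Sult2b1, a sterol sulfotransferase of skin, by 0.99 (SE 0.19). Families of sensory receptors, keratins, cornified envelope proteins, kallikreins, prolactins, crystallins and related epithelial proteins were then counted, a choice made after the values were seen. Of 117 tested members 20 were higher (17.1%, against 9.38% overall) and 1 was lower (0.855%, against 6.96%), with a median of 0.10. Of 48 odorant receptors among them 5 were higher, a share near the 9.38% over all features, and 0 were lower. Over all called-higher features the median rise above the control mean was 0.30 in day 1 mouse 1 and 0.31 in mouse 4, against 0.63 to 0.74 in mice 2, 3 and 5, and Klk1b5 had the same 2 mice lowest. What such genes share with the other rises was not tested.

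Features blank in one group were few. A value in at least 4 control mice and at most 1 day 1 mouse was found for 46 of 13027 features (30 with a symbol), and the reverse for 3. B9d1, of the ciliary transition zone, and Mtch2, of the outer mitochondrial membrane, had values in 5 control mice and 1 day 1 mouse. Gsk3b, a kinase of insulin and Wnt signalling, and Uncx, a homeobox gene, had values in 1 control and 4 day 1 mice. No source used here says why a spot was left blank, and no test was made.

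The day after differed little from day 1 over the whole array. Of 5915 features with enough mice, 72 were higher on day 2 than on day 1 (1.22%) and 39 were lower (0.659%). Without day 1 mouse 2, 52 were higher and 60 lower. Of the 576 features raised on day 1 and tested again, 8 were lower on day 2 and 0 higher, and of the 430 lowered ones 45 were higher and 0 lower. The same day 1 mice chose these features and serve in this contrast, so some turning back would appear without any change. The day 2 minus day 1 difference was 0.061 (SE 0.26, adjusted p = 0.98) for Cdkn1a and 0.11 (SE 0.14, adjusted p = 0.857) for H2ax, and neither passed the test. Genes of neutrophils that had not been called on day 1 were lower on day 2. Ltf had day 1 values of 0.33, -0.78, -0.40, 0.37 and -0.55 and day 2 values of -1.80, -1.65, -1.90, -1.98 and -2.30, with no overlap. It fell by 1.72 (SE 0.19, adjusted p = 1.98e-05). Cd177, a neutrophil surface protein, fell by 1.29 and S100a9, a calprotectin subunit, by 1.22 (values in 3 day 2 mice). Ngp was called at -1.61, a size that is uncertain because of the shared value on 5 day 1 arrays. Of 20 late neutrophil genes 6 were lower on day 2. Ncoa4, a ferritin receptor, fell by 1.05 (SE 0.18). On day 1 it had been called higher at 0.55, and it lost that call without control mouse 1, 3 or 4 or day 1 mouse 1 or 4 (adjusted p up to 0.0985).

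Of the respiratory chain list 7 of 35 were higher on day 2 than on day 1, and 7 of 41 mitochondrial ribosome and import genes, 5 of 16 of ribosome assembly and 5 of 36 splicing factors, with 0 lower in each. Among the largest single rises, Lgals1, galectin 1, had -0.29, 0.016, -1.1 and 0.43 in 4 day 1 mice and 1.03 to 1.41 on day 2, a rise of 1.49 (SE 0.21, adjusted p = 0.000273). Prtn3 rose by 1.06 (SE 0.24, adjusted p = 0.021), and Siglec1, a macrophage receptor, rose by 0.90 (SE 0.14).

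The contrast of day 5 with day 1 uses the same day 1 mice that chose the raised and lowered features, so some turning back would appear without any change. Of 5350 features, 661 were higher on day 5 than on day 1 (12.4%) and 712 lower (13.3%). Of the 553 features raised on day 1 and tested, 453 were lower on day 5 and 0 higher. Of the 421 lowered ones 287 were higher and 3 lower. Cdkn1a fell by 1.36 (SE 0.26) and H2ax rose by 1.04 (SE 0.14). In the mitosis list 15 of 25 members were higher on day 5 and 0 lower, and in the p53 list 0 of 16 were higher and 9 lower.

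The largest rises by day 5 included granulocyte and monocyte genes. Prtn3 was higher by 2.50 (SE 0.23), F13a1 by 1.75 (SE 0.11), Tnfsf13 by 1.69 (SE 0.15), Lta4h by 1.51 (SE 0.21) and Hmgn2 by 1.42 (SE 0.18). Dmkn, known as a skin protein, was higher by 1.79 (SE 0.20) and had not been called on day 1. The largest falls by day 5 included immune genes, while the late neutrophil list had 4 higher and 6 lower of 19 and the monocyte list 5 higher and 1 lower of 9. Il1b fell by 2.80 (SE 0.30), and the difference was -2.74 (SE 0.27) for Cyp4f18, a leukotriene hydroxylase of neutrophils, -2.38 (SE 0.18) for Rtp4, an interferon-induced gene, and -2.08 (SE 0.18) for H2-Aa. Ms4a1 fell by 2.57 (SE 0.40), with day 5 mice spread from -3.46 to -0.51, and Fcmr fell by 2.19 (SE 0.51), with day 5 mouse 4 at -4.75 and the other 4 between -1.42 and -0.21. Of 6 B-cell precursor genes, 0 were higher on day 5 than on day 1 and 1 was lower.

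**Figure D5:**
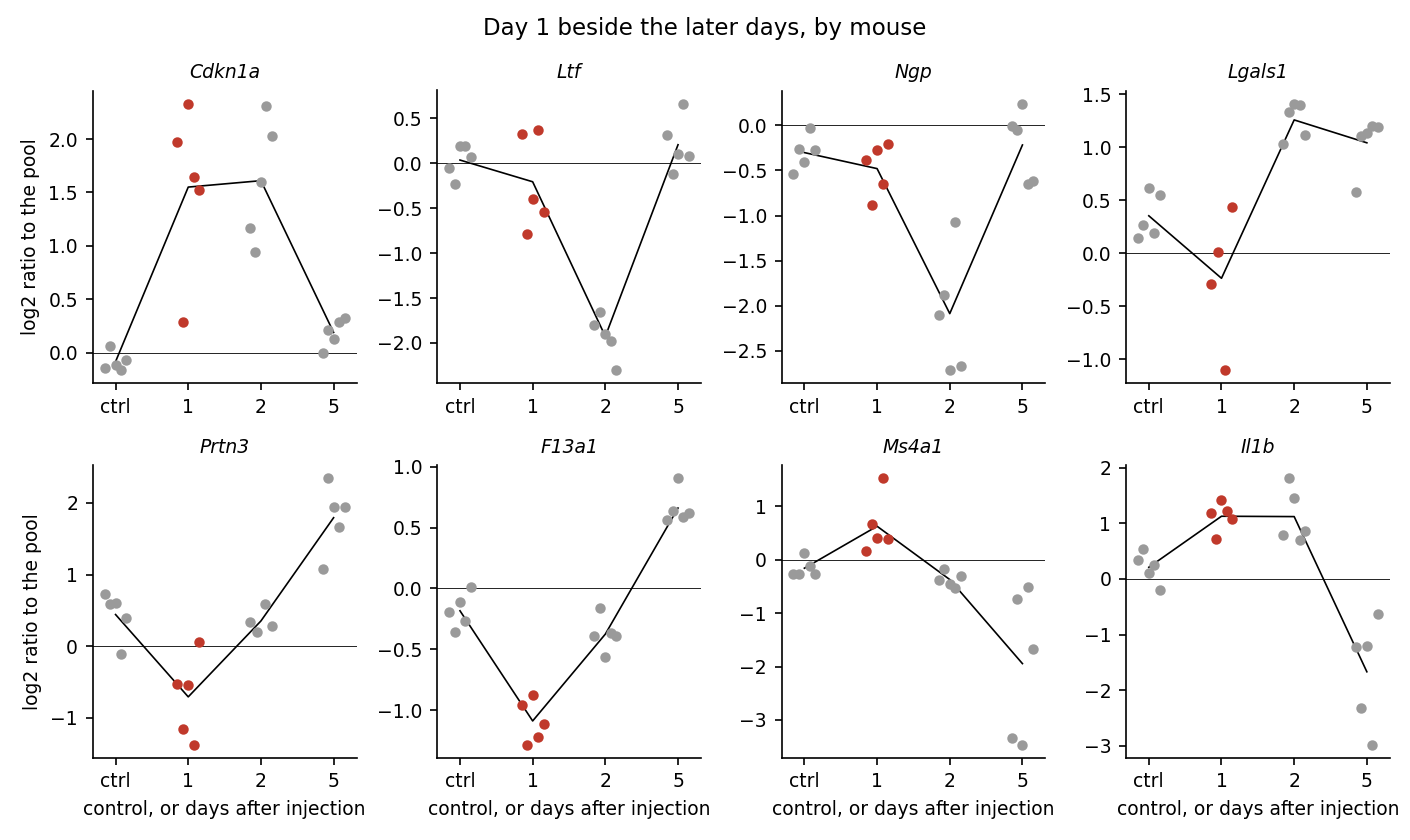
Each panel shows 1 gene in the control, day 1, day 2 and day 5 groups, with the log2 ratio to the reference on the y axis, a point for each mouse (day 1 in red) and a line through the group means. Cdkn1a is high on days 1 and 2, Ltf is low on day 2 and not on day 1, Ngp has shared values on 5 day 1 arrays, and Prtn3 and F13a1 are lowest on day 1 and highest on day 5.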

How the data were processed

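The deposited values are log ratios of sample over reference, centred by the authors near 0 on each array (medians within 0.0151 of 0); the deposited files name no log base, and log2 was assumed. No source used here names the scanner, background correction, normalization, slides or dates, so no batch could be tested. Of 13443 probes, 10032 had 1 gene symbol in the platform annotation, 170 had several and 3241 had none. The 2 arrays of a mouse were averaged first, then the probes of a symbol. limma 3.58.1 (R 4.3.3) was fitted to all 20 mice with the 4 groups and no block, with eBayes and Benjamini-Hochberg adjustment over all features tested. The fit was tested on simulated data. Every one of the 20 arrays had 6 to 44 probes that shared 1 value (0.362% of values), which may be capped ratios, and these were kept. The number of mice and arrays limits the precision. The median SE was 0.133.

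The members and gene lists were chosen with earlier results of these data known. Genes described with a difference were taken from those that a rule gave. The rule gave the 15 largest called rises and falls and up to 6 called members of each list (or its smallest p). It also gave the 6 largest called differences in each direction from day 1 to day 2 and to day 5. Last came the 5 widest gaps between groups in each direction, and up to 5 blank genes in each direction. Not every gene that the rule gave is described, and the choice among them was not part of the rule. Promoters are from RefSeq (GRCm38.p6), matched by symbol for 3668 of 4546 tested genes, and the longest windows searched were 250 bases. Alternatives changed the mice, arrays, filter, scaling, weights and block.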

Additional observations from a re-analysis of the deposited data

Results flagged for a closer look

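Among 219 gene-by-group sets of 4 or 5 mice, 21 had a mouse farther from the others than Dixon's critical value, where chance flags about 1 in 20. Control mouse 3 stood high for Cks2 (1.09, others 0.197 to 0.446), Ms4a6b (0.917), Adipoq (0.238) and Rpl28 (0.932). Control mouse 4 stood low for C1qb (-0.911, others 0.0873 to 0.25), Serping1 (-0.509), Fstl1 (-0.388), Fars2 (-0.371) and Dmkn (-0.181). Control mouse 2 was low for Mcm4 (-0.249) and Arsb (-0.164), and control mouse 5 was low for Alas2 (-0.934) and high for Il17ra (0.333). Day 1 mouse 4 was high for Alas2 (1.58) and Smc4 (-0.46, others -0.907 to -0.796) and low for Fstl1 (0.364) and Ndufa5 (-2.01). Day 1 mouse 1 was nearest to control for Vpreb3 (-0.0191) and Slc1a5 (-0.459), day 1 mouse 3 was low for Cnn3 (-0.918), and day 1 mouse 5 was high for Psmb4 (0.123).

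Differences between treated days were tested in the same limma fit. From day 1 to day 2 the difference was -1.720 for Ltf, -1.608 for Ngp, -1.290 for Cd177, -1.216 for S100a9 (adjusted p = 0.0259) and -1.055 for Ncoa4. It was 1.492 for Lgals1, 1.057 for Prtn3, 0.896 for Siglec1 and 0.713 for F13a1. From day 1 to day 5 it was 2.496 for Prtn3, 1.789 for Dmkn, 1.747 for F13a1, 1.693 for Tnfsf13, 1.505 for Lta4h, 1.421 for Hmgn2, 1.277 for Lgals1, 1.038 for H2ax and 0.718 for S100a9 (adjusted p = 0.0452). Over the same interval it was -2.798 for Il1b, -2.736 for Cyp4f18, -2.570 for Ms4a1, -2.379 for Rtp4, -2.193 for Fcmr, -2.075 for H2-Aa, -1.360 for Cdkn1a, -0.664 for Ncoa4 and -0.392 for Siglec1 (adjusted p = 0.0419).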

How the results depend on the processing

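The count of 1014 features called on day 1 against control was 1593 with array quality weights (895 higher, 698 lower), and 595 to 1332 when each mouse was left out in turn. The other alternatives kept it within 1.5 times, from 751 with the control and day 1 mice alone to 1210 with the mouse as a random block. Without control mouse 4 and day 1 mouse 1 together, an alternative chosen after seeing the data, it was 1209. Same-numbered mice shared no stated litter or day. Their deviations correlated at -0.000843, 0.0707, 0.144, 0.207 and 0.216 for numbers 1 to 5. For 3, 4 and 5 this was above every other number (at most 0.023, 0.0304 and 0.0697), and for 1 and 2 it was not. The labels do not pair the mice, so the main fit had no block. Whether the numbers mark something shared was not settled. The replicate block lost the call of Zmat3 alone among the called genes described with a difference. With this block, 965 features were called on day 1, 114 between day 1 and day 2 and 1326 between day 1 and day 5. Of 101 called genes described with a difference, 91 kept the call under every alternative in which they were measured, 10 lost it under at least 1, and none changed sign. These genes were chosen largely for large changes or wide gaps in the same data, so they do not stand for all calls. Of all 1014 calls, the fits that left out a mouse shared from 580 (without day 1 mouse 3) to 956 (without day 1 mouse 1). Fewer features had enough mice to be tested in those fits. For 19 of the 101, some alternatives gave no value. Of 1296 list medians compared, 46 moved by more than the spread between mice and kept their sign. In 9 lists with medians within 0.054 of 0, 62 changed sign, 3 of them by more than that spread: antigen presentation (-0.04) to 0.082 and lysosome (0.014) to -0.104 with values in all 5 mice of both groups, and interferon genes (0.001) to -0.157 with quantile normalization. The cause was not tested. Signal over background could not be assessed, since the values are ratios.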
